A study of Mus musculus with 4 samples.

Results

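LMO2 binding close to gene starts was examined in pro-B(+) cells, an Ebf1-deficient mouse pro-B cell line that was established from fetal liver progenitors and keeps the ability to enter the T-cell lineage. The regions described are the LMO2 peaks whose centre lay at most 2500 bp from a transcription start site (TSS) by the distance that came with the peak list, whatever the annotation class. There were 232 such peaks among 1585 (14.6%, 95% Wilson interval 13 to 16.5%), and the 1353 other peaks served for comparison. The cells carried the strain label C57BL6/J and grew on OP9 stromal cells with SCF, IL-7 and Flt3L, with no other treatment. Chromatin from 2 samples was precipitated with a mixture of 3 anti-LMO2 antibodies (2 ug of each), and 2 samples of 1% input were the control. All 4 samples came from this line, so the list describes 1 cell line and makes no comparison with cells lacking LMO2. The list held 1 combined value per peak. Neither the read depth nor the spread between the 2 ChIP samples is known from it, and every test below takes peaks as units and measures only the spread among peaks.

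LMO2 is a LIM-only protein that does not bind DNA itself. It bridges bHLH factors such as TAL1 or LYL1 with their E protein partners, GATA factors and the adaptor LDB1, and such complexes are known at enhancers and promoters of blood progenitor genes together with RUNX and ETS factors. Promoters around a TSS are often rich in G, C and CpG dinucleotides and hold binding sites of general promoter factors such as SP, KLF and NF-Y proteins, while most enhancers lie farther away.

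The list gave each peak a score, which rises with the number of normalised reads at the peak, and a focus ratio, the share of those reads placed as they would be around a single binding site. The peaks near a TSS with the highest scores outside repeats are shown because they carried the strongest LMO2 signal and differed in the motifs they held. Each is the whole 207 bp peak on the plus strand of mm10 (GRCm38), and capitals mark any of 6 short motif words on either strand. The word bound by RUNX factors was taken as TGTGGT. For the ETS family, which includes PU.1 and SPIB, the word was CTTCCT, and for the bHLH partners of LMO2 it was the E-box CAGCTG. The factors of the GATA family were represented by the word GATAA alone. The promoter factors of the SP and KLF families were represented by GGGCGG, and the trimeric factor NF-Y by its box CCAAT.
Lyl1, chr8:84700016-84700222: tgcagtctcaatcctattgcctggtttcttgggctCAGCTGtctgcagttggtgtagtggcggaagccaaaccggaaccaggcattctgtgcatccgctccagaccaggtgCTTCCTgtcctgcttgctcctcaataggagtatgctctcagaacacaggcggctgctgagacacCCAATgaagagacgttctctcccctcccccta
Cbfa2t3, chr8:122700752-122700958: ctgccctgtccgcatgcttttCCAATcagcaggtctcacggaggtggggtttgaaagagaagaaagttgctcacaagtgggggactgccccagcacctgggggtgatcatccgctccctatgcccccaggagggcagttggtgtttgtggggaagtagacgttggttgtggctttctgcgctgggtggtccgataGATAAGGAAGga
Mef2c, chr13:83572065-83572271: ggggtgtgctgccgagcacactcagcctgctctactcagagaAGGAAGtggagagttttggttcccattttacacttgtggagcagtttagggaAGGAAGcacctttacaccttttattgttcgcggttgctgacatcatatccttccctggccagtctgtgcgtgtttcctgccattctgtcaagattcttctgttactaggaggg
Msh6, chr17:87974659-87974865: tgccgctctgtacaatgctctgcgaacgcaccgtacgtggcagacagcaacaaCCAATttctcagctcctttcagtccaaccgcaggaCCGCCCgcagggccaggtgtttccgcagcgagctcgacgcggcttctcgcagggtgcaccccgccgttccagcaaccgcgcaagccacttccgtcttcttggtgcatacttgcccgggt
Laptm5, chr4:130914080-130914286: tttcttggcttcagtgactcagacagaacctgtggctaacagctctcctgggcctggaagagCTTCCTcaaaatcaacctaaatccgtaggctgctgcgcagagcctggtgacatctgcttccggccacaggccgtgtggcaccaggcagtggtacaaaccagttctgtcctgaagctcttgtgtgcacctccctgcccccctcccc
Ints1, chr5:139777063-139777269: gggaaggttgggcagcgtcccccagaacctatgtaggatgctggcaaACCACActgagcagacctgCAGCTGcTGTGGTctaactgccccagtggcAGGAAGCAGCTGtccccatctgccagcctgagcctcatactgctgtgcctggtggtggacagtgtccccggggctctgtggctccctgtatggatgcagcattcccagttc
Sdc4, chr2:164441197-164441403: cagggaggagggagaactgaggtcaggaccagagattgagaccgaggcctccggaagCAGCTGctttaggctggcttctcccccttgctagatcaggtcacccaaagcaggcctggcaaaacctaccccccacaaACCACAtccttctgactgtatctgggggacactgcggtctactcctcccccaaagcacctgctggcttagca
Mgat1, chr11:49241593-49241799: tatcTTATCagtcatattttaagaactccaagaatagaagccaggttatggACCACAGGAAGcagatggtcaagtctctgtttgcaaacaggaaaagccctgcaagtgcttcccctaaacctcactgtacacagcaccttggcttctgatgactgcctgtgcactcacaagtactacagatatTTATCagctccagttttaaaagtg
Sde2, chr1:180850860-180851066: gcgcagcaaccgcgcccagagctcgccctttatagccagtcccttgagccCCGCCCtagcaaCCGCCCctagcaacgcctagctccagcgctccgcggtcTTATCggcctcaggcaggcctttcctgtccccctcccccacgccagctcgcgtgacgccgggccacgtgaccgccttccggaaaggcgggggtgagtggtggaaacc
Cd276, chr9:58541940-58542146: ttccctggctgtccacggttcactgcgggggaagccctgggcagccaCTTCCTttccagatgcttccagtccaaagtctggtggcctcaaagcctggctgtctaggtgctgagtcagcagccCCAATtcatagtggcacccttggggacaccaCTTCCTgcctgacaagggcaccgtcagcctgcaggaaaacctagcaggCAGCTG

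By the distances in the list these windows lay upstream of their genes, apart from those of Laptm5 and Sdc4, which fell in the first intron. The list placed the Mef2c window in the first intron of a longer transcript of the same gene, and the Lyl1 window at the end of a neighbouring transcript. Over the whole 207 bp, 7 of the 10 peaks held the ETS word, 4 the bHLH word, 4 the NF-Y word, and 3 each the RUNX and GATA words. The Ints1 peak carried the RUNX, ETS and bHLH words together, the ETS word and a bHLH word directly adjoining. In the Cbfa2t3 peak a GATA word and an ETS word shared 1 base at the edge of the peak, and the Msh6 and Sde2 peaks, next to CpG-rich starts, carried the SP and KLF word. Word matches are descriptions of the sequence and not evidence of binding by a factor.

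The highest score near a TSS belonged to Lyl1, which encodes a bHLH partner of LMO2. Its peak 1338 bp upstream of the start scored 125.3, rank 3 of the whole list, with a focus ratio of 0.889. A second peak 100 bp downstream of the same start scored 24.0 and had a focus ratio of 0.601, among the 5 lowest near a TSS. Cbfa2t3, which encodes the corepressor ETO2 found in these complexes, had a peak 1746 bp upstream with a score of 101.7 (rank 20). It had 4 more peaks outside the 2500 bp limit, with scores of 54.5, 47.9, 35.8 and 25.7, so the peak nearest the start was the highest of its 5. At Lyl1 no further peak was listed.

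Other high scores belonged to genes of varied function. Mef2c, a transcription factor of lymphoid and myeloid progenitors, had a score of 77.0 at 1439 bp upstream. Msh6, a DNA mismatch repair gene, scored 69.6 at 288 bp upstream, and Laptm5, a lysosomal membrane protein of blood cells, scored 69.2 at 849 bp downstream. Ints1, a subunit of the Integrator complex, scored 59.4 at 1488 bp upstream. Sdc4, a cell surface proteoglycan, scored 53.0 at 1888 bp downstream. Mgat1, an N-glycan branching enzyme, scored 49.8 at 2495 bp upstream. Sde2 scored 48.0 at 188 bp upstream, and Cd276, an immune checkpoint molecule, scored 46.3 at 1103 bp upstream. The Cd276 distance rests on a start that the RefSeq annotation used here does not hold, and the window lay 12990 bp downstream of the closest RefSeq start. Of the 20 highest scores in the whole list 3 lay near a TSS, as did 11 of the 100 highest. Peaks near a TSS made up 14.6% of the whole list, so these counts are close to their share of it.

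The remaining peaks among the 16 highest near a TSS, with 2 tied at the last place, lay in repeats or in sequence that occurs more than once in the genome. The peak 213 bp downstream of the start of D17H6S56E-5 scored 101.8, and the 50 bp words of its window had a median of 6 copies in the genome. Apobec3, which encodes a cytidine deaminase that restricts retroviruses, had a score of 97.7 at 861 bp downstream, within an RLTR4_Mm retroviral repeat in an intron, also with a median of 6 copies. The peak 1994 bp upstream of 0610039K10Rik, annotated to the same repeat class, scored 69.0. Its window had a median of 1 copy, and 12.6% of its words were repeated, below the 50% used here to call a window repeated. Mir6546 scored 48.0 with 3 copies. The neighbouring calmodulin-like genes Calm4 and Calm5 scored 47.5 and 46.3 with 2 copies each.

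**Figure D1:**
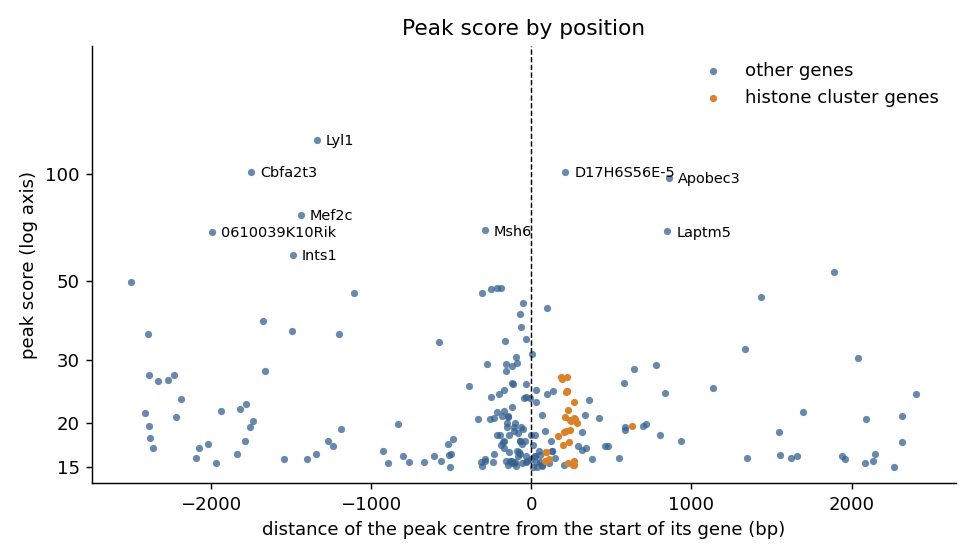
Peak score (log axis) of each of the 232 LMO2 peaks against the distance of its centre from the TSS, with upstream positions negative. Blue points are peaks at other genes and orange points the 29 peaks at histone cluster genes. Of the 3 highest points, Lyl1 (125.3) and Cbfa2t3 (101.7) lie more than 1000 bp upstream and D17H6S56E-5 (101.8) 213 bp downstream, and the orange points form a narrow column downstream of the start with scores up to 26.9.

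The peaks were concentrated at the starts themselves. Of the 232 peaks, 116 had their centre within 250 bp of the TSS, 30 lay 250 to 500 bp away, 26 lay 500 to 1000 bp away and 60 lay 1000 to 2500 bp away. Counted over both sides, the 1000 to 2500 bp band held 20.0 peaks per kb of distance, close to the 20.7 per kb of the 2.5 to 10 kb band beyond the limit, whereas the 250 to 500 bp band held 60 per kb. As a background, 4.73% of the sequence of chromosomes 1 to 19, X and Y lies within 2500 bp of a curated RefSeq start. The 5 peaks closest to a TSS belonged to Bank1 at 1 bp, Scrn3 at 3 bp, Dhrs9 at 4 bp, 9030025P20Rik at 6 bp and Traf3ip3 at 11 bp, with scores of 18.4, 15.8, 31.3, 23.5 and 15. The list classed 126 of the peaks as promoter-TSS (54.3%), 41 as intron, 30 as intergenic, 17 as exon, 10 as TTS (transcription termination site) and 8 as 5′ UTR.

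Peaks on either side of the 2500 bp limit had scores in the same range. Just inside it lay Mir3960 at 2384 bp, Egfl7 at 2390 bp, Gria2 at 2404 bp, Rabggta at 2412 bp and Mgat1 at 2495 bp, with scores of 19.6, 35.5, 24.0, 21.3 and 49.8. Just outside lay Gbp8 at 2514 bp, Gas7 at 2537 bp, Efcc1 at 2540 bp, Tmem229b at 2590 bp and Gm4262 at 2615 bp, with scores of 16.6, 33.6, 36.5, 21.4 and 27.5.

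Upstream positions outnumbered downstream ones, with 131 peaks upstream and 101 downstream (56.5% upstream, 95% Wilson interval 50.0 to 62.7%), but this did not pass a two-sided exact binomial test against equal numbers (p = 0.0567). The downstream side included 29 peaks at histone cluster genes, a group singled out after its values were seen. Without them, 131 upstream peaks stood against 72 downstream (64.5%, 57.7 to 70.8%). This is a description with no test, since removing a group that lay wholly downstream fixes the direction of the change. Within 250 bp of the start, 68 peaks lay upstream and 28 downstream outside the histone genes. Starts of genes on both strands lay within 2500 bp of 42 peaks and starts of more than 1 gene within 2500 bp of 49 peaks, and for these the side and the gene follow from the start that the list chose.

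**Figure D2:**
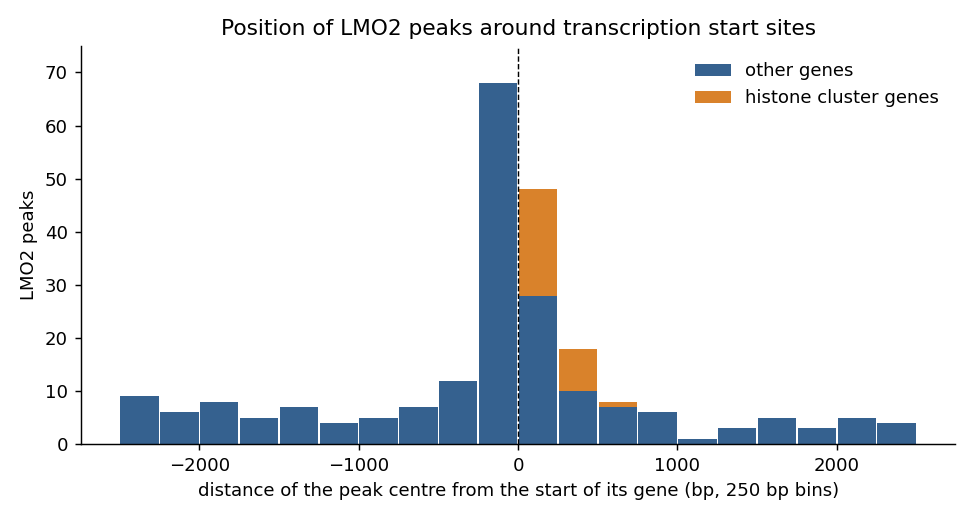
Number of LMO2 peaks in 250 bp bins of distance from the TSS, upstream negative, with blue bars for other genes and orange bars for histone cluster genes stacked on top. The bin just upstream of the TSS holds 68 peaks and the bin just downstream 48, of which 20 belong to histone cluster genes.

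A group at histone cluster genes stood out for its position. These genes encode the replication-dependent histones, are short and without introns, and lie as many similar copies in a few clusters. Of 30 LMO2 peaks assigned to them, 29 were near a TSS, at 25 genes, 27 of the peaks on chromosome 13 and 2 on chromosome 3. All 29 lay downstream of the start, from 85 to 631 bp. By RefSeq, 10 of 12 H3 genes, 8 of 12 H4 genes, 5 of 17 H2B genes, 2 of 17 H2A genes and 0 of 6 H1 genes of the clusters had such a peak. For comparison, 0.914% of all 21774 protein-coding genes had a peak near a start, and 4.82% had any listed peak.

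Scores at the histone genes were low to moderate, from 15.2 to 26.9 with a median of 19.6. The 3 highest were Hist1h3d with 26.9, Hist1h3h with 26.8 and Hist1h3b with 26.5. Their focus ratios were low, with a median of 0.718 and none above 0.775, against 0.767 at the other genes near a TSS. The H2B genes had the lowest, with a median of 0.639 over 6 peaks. In all 29 windows at least 50% of the 50 bp words occurred more than once in the genome, with a median copy number of 11 at H2B, 9 at H2A and H4 and 8 at H3 genes. The lowest share of such words was 62.3%, at Hist1h2bj. Reads within repeated words cannot be assigned to 1 copy, so these 29 peaks cannot be counted as 29 independent regions. The authors kept only reads with at most 10 matching places, and the median of 11 copies at H2B lies above that. The effect of this limit on the signal was not tested. The read length is given differently in the labels and the methods, and copies were not counted for the longer of the lengths. Hist1h4n had 2 peaks, as had Hist1h2ap, Hist1h2bq and Hist2h3c2, each pair at separate places whose sequence is repeated. The Hist1h3d peak, on the plus strand and marked as above, is shown as the highest of them.
Hist1h3d, chr13:23575847-23576053: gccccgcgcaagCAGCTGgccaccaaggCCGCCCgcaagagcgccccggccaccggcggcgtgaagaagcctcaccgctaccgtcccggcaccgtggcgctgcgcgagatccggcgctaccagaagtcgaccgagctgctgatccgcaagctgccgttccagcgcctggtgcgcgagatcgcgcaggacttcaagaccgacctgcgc

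The Hist1h3d peak lies in the GC-rich exon of its gene. In the histone windows the median GC content was 67.5% and the median CpG count 25. None of the 29 held the RUNX, ETS or NF-Y word. For independent windows this would allow a share of up to 10.3% (3 counts of 29, for counting error only). The windows are repeated sequence and not independent, so that limit is too tight. The bHLH word was in 3 and the GATA word in 1. Across all 232 peaks, 48 windows (20.7%) were in such repeated sequence, against 10.4% of the other peaks, and 19 of the 48 were at other genes. These included 9030025P20Rik, Gm3417 and Ermard on chromosome 17, whose starts share the same sequence in 3 copies, and both peaks of Zfp433. The part of repeated sequence in the values of these peaks was not tested.

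Peaks near a TSS had lower scores than other peaks. The median score was 18.9 (lower and upper quartiles 16.2 and 24.45) near a TSS and 20.7 (17.0 and 28.7) elsewhere, and 95 of 232 peaks (40.9%) lay above the list median of 20.3, compared with 695 of 1353 (51.4%). The odds ratio was 0.66 (95% interval 0.49 to 0.88, two-sided Fisher's exact test, adjusted p = 0.00533 over 12 tests). Without the histone genes the median was 18.8. Scores of at least 30 were reached by 32 peaks near a TSS (13.8%) and by 22.9% of the others. Among peaks of that height, none of the differences from other peaks in focus ratio, gene type, base composition or motif words passed the Fisher's exact test. The lowest scores near a TSS, 15, belonged to Traf3ip3, Trpv2, 4933433G15Rik and the third peak of Mgat1, followed by Gne, Cmklr1 and Mtmr14 at 15.1.

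Focus ratios were also lower near a TSS. The median was 0.7575 near a TSS and 0.793 elsewhere, and 32.8% against 52.9% of peaks lay above the list median of 0.788 (odds ratio 0.43, 0.32 to 0.59, Fisher's exact test, adjusted p = 3.62e-08). Within 250 bp of the TSS the median was 0.7475, and from 1000 to 2500 bp it was 0.7845. The highest focus ratios near a TSS belonged to Gstp3 with 0.924, Laptm5 with 0.909, F2r with 0.899, Rgs18 with 0.896 and Apobec3 with 0.894, of which Gstp3 and Apobec3 lay in retroviral repeats. F2r and Rgs18 encode a thrombin receptor and a regulator of G protein signalling of platelets and progenitors. The lowest were at Hist2h3c2 with 0.594 and 0.609, Lyl1 with 0.601, Hist1h2bc with 0.608 and Zfp433 with 0.620. GC content differed between the same groups. Among windows of 50 to 60% GC, a restriction chosen after seeing the data, neither difference passed, with 85 windows near a TSS. The odds ratio was 0.72 (0.44 to 1.15, Fisher's exact adjusted p = 0.373) for the focus ratio. For the score it was 0.58 (0.35 to 0.94, Fisher's exact adjusted p = 0.0885), farther from 1 than the 0.66 over the list. Median scores near a TSS without the histone genes and elsewhere were 18.35 and 20.2 below 50% GC. They were 19.1 and 21 from 50 to 60%, and 18.6 and 20.85 from 60% upward.

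**Figure D3:**
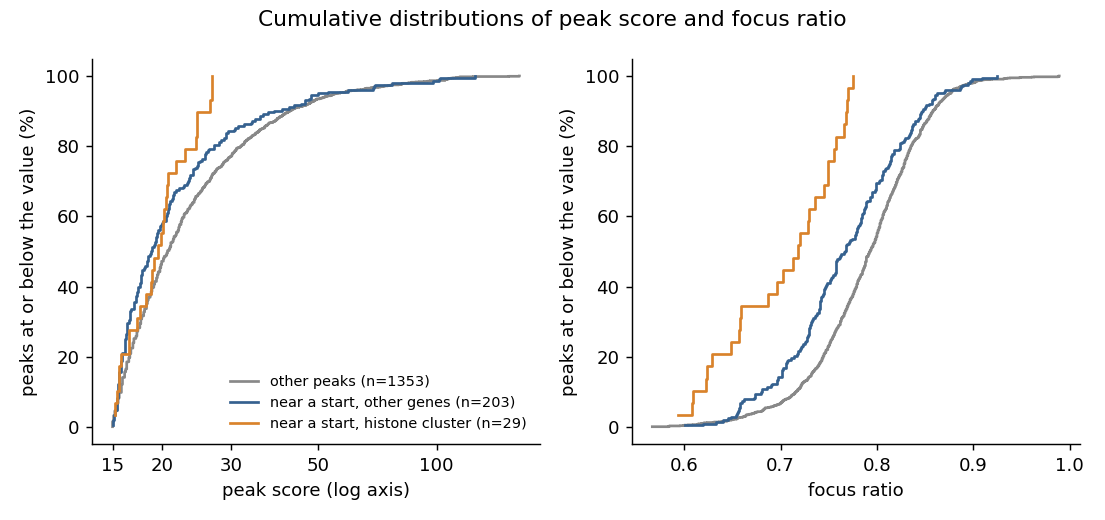
Cumulative share of peaks at or below each peak score (left, log axis) and focus ratio (right) for other peaks in grey, peaks near a TSS at other genes in blue and at histone cluster genes in orange. The blue lines lie above the grey, meaning lower values, over most of their length, and the orange focus ratios end at 0.775.

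The windows near a TSS were richer in G, C and CpG than those of the other peaks. Median GC content was 59.5% near a TSS and 52.0% elsewhere, with 78.0% and 45.0% of windows above the list median of 52.5% (odds ratio 4.34, 3.10 to 6.16, Fisher's exact test, adjusted p = 3.35e-20). The median CpG count per 200 bp was 7 against 3 (odds ratio 3.15, 2.30 to 4.35, Fisher's exact adjusted p = 7.75e-14). Windows with at least 50% soft-masked repeat bases numbered 3 of 232 near a TSS and 51 of 1352 elsewhere, a difference that did not pass (Fisher's exact adjusted p = 0.0686).

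The motif words differed as well. The RUNX word was in 81 of 232 windows near a TSS (34.9%) and in 789 of 1352 others (58.4%), an odds ratio of 0.38 (0.28 to 0.52, Fisher's exact adjusted p = 1.47e-10). The ETS word was in 38.8% and 53.6% (odds ratio 0.55, 0.41 to 0.74, Fisher's exact adjusted p = 7.05e-05). The SP and KLF word was in 24.6% and 6.66% (odds ratio 4.56, 3.10 to 6.69, Fisher's exact adjusted p = 7.75e-14). For the bHLH word no difference was detected, with 33.6% and 33.8% (odds ratio 0.99, 0.73 to 1.34, adjusted p of the Fisher's exact test 1). The GATA word was in 16.8% and 19.5% (0.83, 0.56 to 1.21) and the NF-Y word in 20.3% and 15.8% (1.36, 0.93 to 1.95), and neither passed the Fisher test (adjusted p = 0.400 and 0.123). In 34.1% of windows near a TSS and 12.3% of the others, none of the RUNX, ETS and bHLH words was present. These words stand for motif families that the authors reported as enriched in this same list. Most of the list is made up of the other peaks, so the choice of words can favour those peaks in advance. The RUNX and ETS differences and the share with none of the words carry that limit.

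The shares differed with the distance from the TSS, which is given as a description. Within 250 bp the RUNX word was in 28 of 116 windows (24.1%, 95% Wilson interval 17.3 to 32.7%), and from 1000 to 2500 bp it was in 33 of 60 (55.0%, 42.5 to 66.9%), close to the 60.6% of the 2.5 to 10 kb band. For the ETS word the shares in the same bands were 31.0% and 58.3%. For the bHLH word they were 25% (18 to 33.6%) and 46.7% (34.6 to 59.1%), the latter the highest of all the distance bands. For the SP and KLF word they were 33.6% and 11.7%. For windows of the same length around all 32843 RefSeq starts (150 bp before to 50 bp after), the RUNX word was in 11.3%, the ETS word in 26.4%, the bHLH word in 11.9%, the GATA word in 16.6%, the SP and KLF word in 32.2% and the NF-Y word in 28.6%. The intervals of the RUNX and bHLH shares within 250 bp of a TSS lay above these promoter shares, while those of the ETS, SP and KLF, GATA and NF-Y words included them. That band held 20 windows at histone cluster genes, none with the ETS word. Within 500 bp without the histone genes, the ETS share was 39.0% (30.7 to 48.0%), above its promoter share. The intervals for SP and KLF (28.3 to 45.4%), GATA (9.87 to 22.8%) and NF-Y (20.7 to 36.7%) still included theirs. GC content was not matched, with a median of 54% in the promoter windows and 62.5% in the peak windows within 250 bp.

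GC content and repeated sequence moved with these values, and their part in them was not tested beyond what follows. Without the histone genes, the RUNX share near a TSS was 39.9% and the ETS share 44.3%, both below the other peaks. Without all windows of repeated sequence, the ETS difference no longer passed (odds ratio 0.72, 0.52 to 0.99, Fisher's exact adjusted p = 0.0584) and that for NF-Y, a word that none of the removed histone windows held, was then past the threshold (1.67, 1.1 to 2.48, adjusted p = 0.0193). Among windows of 50 to 60% GC the RUNX word was in 51.8% of windows near a TSS and 58.9% of the others (odds ratio 0.75, 0.47 to 1.21, Fisher's exact adjusted p = 0.373), and the ETS word in 55.3% and 54.9%. The SP and KLF word no longer passed either, its odds ratio moving from 4.56 to 2.14 (0.96 to 4.40, Fisher's exact adjusted p = 0.126). Within these windows the NF-Y word was more frequent near a TSS, in 27.1% against 14.1% (odds ratio 2.25, 1.28 to 3.87, Fisher's exact adjusted p = 0.0252). The other GC ranges, with no histone genes near a TSS, were not tested. Below 50% GC the RUNX word was in 47.2% near a TSS and 65.5% elsewhere. For ETS the shares were 41.7% and 53.5%, and for NF-Y 13.9% and 19.6%. From 60% GC upward they were 24.4% and 31.1% for RUNX, 34.1% and 46.2% for ETS, and 23.2% and 12.1% for NF-Y. The SP and KLF word was there in 51.2% and 28.0%, and below 50% GC in 0% and 0.668%. Peaks with the RUNX word near a TSS had a median score of 20.5 and a median focus ratio of 0.795, and those without it 18.5 and 0.745. Where present, the RUNX word lay a median of 33 bp from the peak centre near a TSS and 32 bp elsewhere.

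**Figure D4:**
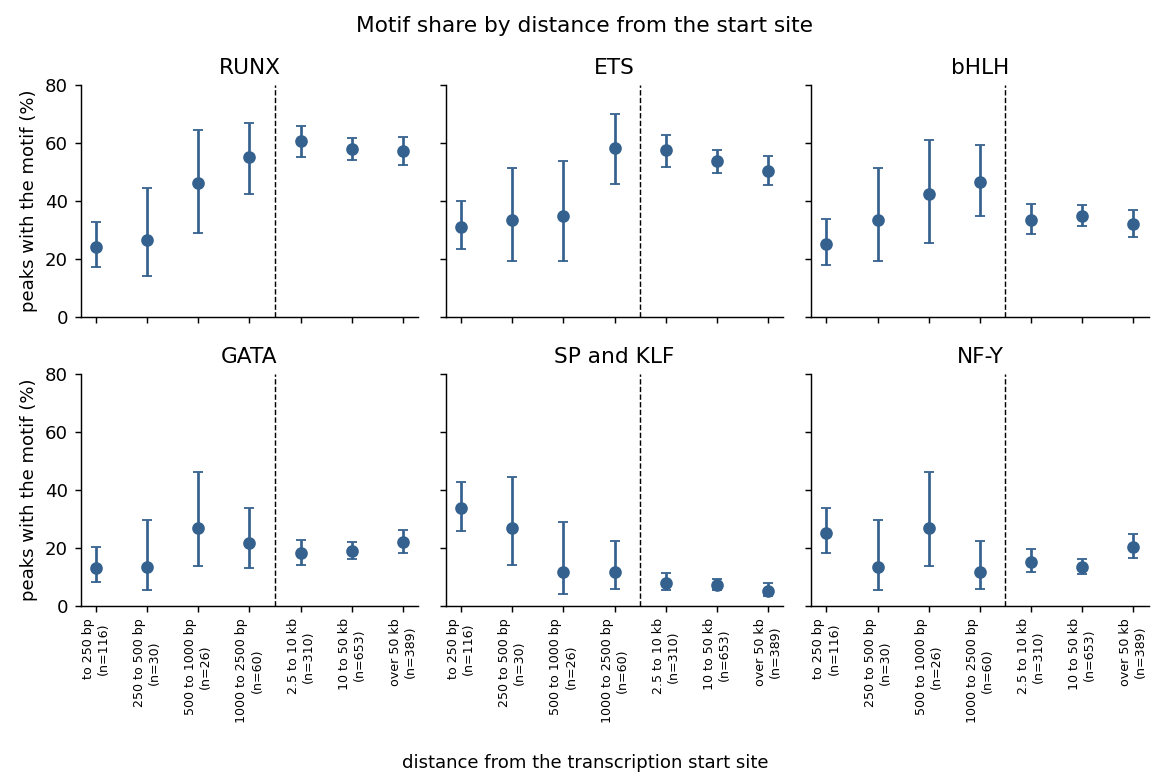
Share of LMO2 peaks whose 200 bp window holds each motif word, by distance from the TSS, with points for shares, bars for 95% Wilson intervals and the number of peaks per band on the axis. Left of the dashed line are the peaks near a TSS. The RUNX share is 24.1% within 250 bp and 55.0% from 1000 to 2500 bp, and the SP and KLF share is 33.6% and 11.7%.

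Upstream and downstream peaks were then compared with each other. The median score was 19.4 upstream and 18.8 downstream (odds ratio of lying above the median 1.33, 0.77 to 2.32), and the median focus ratio was 0.762 and 0.755 (1.19, 0.69 to 2.07). The SP and KLF word was in 29.8% of upstream and 17.8% of downstream windows (1.95, 1.00 to 3.92), and the NF-Y word in 25.2% and 13.9% (2.09, 1.01 to 4.51). None of the 9 comparisons passed the Fisher's exact test after adjustment over them (lowest adjusted p = 0.142). At an unadjusted p under 0.05, GC content and the SP and KLF and NF-Y words differed. Without the histone genes these ratios moved from 0.58 (0.33 to 1.02) to 1.01 for GC content, from 1.95 to 1.75 (0.84 to 3.81) for the SP and KLF word and from 2.09 to 1.39 (0.66 to 3.06) for the NF-Y word. All 3 intervals then included 1, and before the removal only that of the NF-Y word excluded it.

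The 232 peaks belonged to 221 genes, and 10 genes had more than 1. Besides Lyl1 and the 4 histone genes these were Mgat1, with peaks of 49.8 and 15.8 upstream of 1 start and of 15 upstream of another, Klf13 with 24.7 and 19.8, Dennd4b with 17.2 and 15.6, 6030468B19Rik with 18.4 and 16.1, and Zfp433 with 16.6 at each of 2 copies. A further listed peak beyond 2500 bp was assigned to 38 of the genes. Runx3, a RUNX factor of T-cell and other lineages, had the most, with 5 such peaks beside that of 33.9 at 163 bp upstream. Smad3, a transducer of TGF-beta signals, had a peak of 16.3 at 1341 bp upstream and 3 higher ones farther away, with scores of 29.1, 21.7 and 17.7. Among peaks with a gene type, 190 of 209 near a TSS were assigned to protein-coding genes (90.9%), against 81.9% of the others (odds ratio 2.21, 1.34 to 3.83, Fisher's exact adjusted p = 0.00156), a call that ended without repeated sequence (1.67, 0.99 to 2.97, adjusted p = 0.0719). For 23 peaks the list named no gene, and RefSeq gave a symbol for all 23 from the transcript, among them Sla2, P2ry12, Il18 and Treml2.

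Genes of 10 lists of regulators and markers were looked up among the 221, and 12 genes were found. Their shares are small counts and were not tested, and over all protein-coding genes 0.914% had a peak near a start and 4.82% any listed peak. The lists were chosen with earlier results of these data known. The authors had already shown LMO2 binding at listed genes such as Lyl1, Erg, Tcf7 and Bcl11a. The shares therefore cannot be read as enrichment over all genes. Of 18 LMO2 complex members and partners, Lyl1 and Cbfa2t3 had a peak near a TSS (11.1%, 3.10 to 32.8%), while Tcf4 and Ssbp2 had one elsewhere only. Of 29 stem and progenitor transcription factors, Runx3, Mef2c and Nfe2 had one (10.3%, 3.58 to 26.4%). Nfe2, a bZIP factor of megakaryocytes and erythroid cells, had a score of 37.2 at 61 bp upstream. In the same list 8 more genes had only farther peaks, among them Runx1, Erg, Fli1 and Bcl11a. Of 32 signalling genes, Rasgrp2 and Dock8, regulators of small GTPases, had scores of 17.4 and 15.5, beside Smad3.

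The T-lineage and B-lineage lists gave 1 gene each. Of 24 early T-lineage genes (4.17%, 0.739 to 20.2%) this was Lat, the adaptor of T-cell receptor signalling, with a score of 16.1 at 31 bp upstream, and Tcf7, Cd247, Lef1 and Tox had farther peaks. Of 21 B-lineage genes (4.76%, 0.846 to 22.7%) it was Spib, an ETS factor, with 18.1 at 2377 bp upstream. Of 28 receptor, homing and adhesion genes Selplg, a selectin ligand, had one, with 26.4 at 2264 bp upstream, whereas 10 more had farther peaks only. Bcl2l11, which encodes the pro-apoptotic protein BIM, was the gene found among 23 of cell cycle and survival, with 15.6 at 158 bp upstream. None of the 15 listed myeloid, erythroid and megakaryocyte genes had a peak near a TSS (0%, 0 to 20.4%). The same held for the 32 listed chromatin regulators (0 to 10.7%) and the 13 listed stromal genes (0 to 22.8%). Outside these lists, the chromatin genes Brpf1 (30.7) and Smarce1 (20.6) had such a peak, as did Nfe2 (37.2), listed with the progenitor factors. All 3 intervals include the 0.914% of all protein-coding genes, so these counts do not set the lists apart. A peak list holds no expression values, so these counts do not test the identity of the cells.

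By the gene descriptions of the list, 12 of 199 described genes near a TSS (6.03%, 3.48 to 10.2%) matched the words chosen for transcription factors and DNA-binding proteins, such as zinc finger, against 4.80% of 999 genes with a farther peak. They included Klf10, Klf13, Runx3, Spib and several zinc finger genes. This counts words and not such genes, since Lyl1, Mef2c and Nfe2 are transcription factors whose descriptions did not match. The words for receptors and membrane antigens matched 8.54% and 8.71%, and those for kinases and phosphatases 2.51% and 6.21%. Of the 10 description classes, that of chromatin or histone genes differed most in share, 13.6% against 1.60%. Near a TSS all of its genes but Brpf1 and Smarce1 were histone cluster genes. Their peaks are not independent regions, so this share counts similar copies separately and the difference rests on them.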

How the data were processed

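ChIP-seq was carried out on 2 LMO2 ChIP and 2 input samples of pro-B(+) cells. The authors aligned the reads to mm10 with Bowtie 1.1.1, keeping reads with at most 10 matching places, called peaks with HOMER against matched input, kept peaks reproducible between replicates by IDR and with a normalized score of at least 15, and deposited 1 annotated list. The deposited peak score is HOMER's value for both replicates together, and its scaling is not given in the sources used here. The deposited focus ratio is a fraction from 0 to 1. The read length is stated differently in the labels and in the methods, and no depth or value per replicate was used here, since the list holds none.

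Peaks were split by the deposited distance to the TSS at 2500 bp. Windows of 200 bp around each centre were read from GRCm38.p6 (samtools 1.23.1, pysam 0.24.0), and 1 peak on an unplaced sequence, with no distance, was left out of the sequence tests and counted with the other peaks elsewhere. Both strands were searched for the 6 words, which may overlap. Starts and names came from RefSeq, and 200 of the 230 peaks near a TSS whose transcript it holds had the same distance in it. A window was called repeated when at least 50% of its 50 bp words occurred more than once on the chromosomes. Shares were compared by two-sided Fisher's exact tests with conditional odds ratios and 95% intervals (SciPy 1.17.1), cut at the median of the list, with Benjamini-Hochberg adjustment over 12 tests (9 for upstream against downstream) and a threshold of 0.05. The tests were checked on simulated counts. Intervals cover counting error over peaks only, and neighbouring or repeated peaks are not independent. The members, gene lists, words and tests were chosen with earlier results of these data known. Named genes were the peaks with the 15 highest and 5 lowest scores, the 5 highest and 5 lowest focus ratios, the 5 nearest to a TSS, 5 on each side of the limit, genes with 2 or more peaks and list members. Sequences are those of the 10 highest scores outside repeats, and that of Hist1h3d, chosen after its values were seen. Alternatives were other distances, a score of at least 30, 1 peak for each gene, no soft-masked windows, other peaks within 50 kb, an upper quartile cut and 100 bp windows.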

Additional observations from a re-analysis of the deposited data

How the results depend on the processing

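No paired analysis was possible because both ChIP samples entered 1 combined value per peak, and for the same reason leaving out a replicate could not be run. Of 197 recomputed values, 143 kept their direction and their side of the threshold of 0.05. The cause of the other changes was not tested. Values are odds ratios unless given as percent, near a TSS against other peaks unless marked as upstream against downstream (U). Cuts were retaken at the median of the peaks in each setting. With a score of at least 30, 9.36% of peaks were near a TSS and 71.9% of these upstream (now past the threshold); the ratios for repeat share (1.52) and GATA (1.92) reversed, as did U focus ratio (0.396), U GC (2.52), U RUNX (0.556) and U bHLH (0.973), and focus ratio (0.871), protein-coding (4.3), GC (2.42), CpG (1.31), RUNX (0.839), ETS (0.458) and SP and KLF (1.77) no longer passed. The score ratio there (1.52) compares scores within peaks selected on the score and is no counterpart of the value over the list. At 1000 bp, 10.9% of peaks were near a TSS, U score (0.911) and U ETS (0.956) reversed and NF-Y (1.64) passed. At 5000 bp, 21.3% were near, 55.5% of them upstream (past the threshold), and U focus ratio (0.953), U ETS (0.902) and U GATA (0.976) reversed. The upstream share also passed without soft-masked windows (56.8%). NF-Y passed against other peaks within 50 kb (1.57). In 100 bp windows repeat share passed (0.247), and bHLH (1.05) and U GATA (0.845) reversed. The rest were chosen after seeing the data. Removing histone cluster genes (upstream share 64.5%) takes out only peaks that lay downstream. Removing repeated sequence (64.7%), which holds all the histone cluster peaks, takes out 36 downstream and 12 upstream peaks. These shares were not tested. Without histone cluster genes, of which none held the word, NF-Y (1.61) passed, and bHLH (1.15), U focus ratio (0.761), U GC (1.01), U RUNX (0.817), U ETS (0.703) and U GATA (0.930) reversed. Without repeated sequence NF-Y (1.67) passed, protein-coding (1.67) and ETS (0.716) did not, and bHLH (1.19), U focus ratio (0.811), U RUNX (0.805) and U ETS (0.644) reversed. In windows of 50 to 60% GC, score (0.581), focus ratio (0.717), RUNX (0.750) and SP and KLF (2.14) no longer passed, NF-Y (2.25) passed, and ETS (1.02), bHLH (1.29) and GATA (1.1) reversed. The list gives no depth and peaks under a score of 15 are not in the list, so a gene without a listed peak cannot be called unbound.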
